A study of Mus musculus with 384 samples.

Results

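The unfolded protein response and the integrated stress response were described here through 34 genes in the livers of 192 mice. The genes were chosen by name, from textbook membership of these pathways, and each name was matched through its Ensembl ID to the GENCODE M21 annotation. All 34 were found among the 21454 rows of the deposited table and all 34 were among the 14602 genes that passed the filter on low values. They comprised 14 chaperones and folding factors of the endoplasmic reticulum (ER), 7 genes of ER-associated degradation, 4 sensors or transcription factors of the unfolded protein response (UPR), and 9 genes of the ATF4 branch, called ATF4 and its targets below.

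Secreted and membrane proteins fold in the ER, and hepatocytes secrete most plasma proteins. When folding falls behind, the sensors IRE1 (gene Ern1), PERK (Eif2ak3) and ATF6 leave the chaperone BiP (Hspa5). IRE1 then splices the mRNA of XBP1, ATF6 is cut into a transcription factor, and both induce chaperones and degradation genes. PERK phosphorylates the initiation factor eIF2, which lowers translation in general but raises translation of ATF4, and ATF4 induces genes of amino acid supply, redox balance and feedback. Other eIF2 kinases that sense amino acid lack, double-stranded RNA or heme feed into the same ATF4 branch, and for this reason it is called integrated. ATF4, XBP1 and the sensors are controlled largely after transcription, by translation, splicing and cleavage, so their mRNA level is not a measure of their activity.

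Diversity Outbred mice descend from several inbred founder strains, and each mouse is genetically distinct. Total RNA of whole liver was made into mRNA libraries and sequenced with reads of 100 bases, in 2 technical repeats per mouse that the deposited table holds as 1 column. All mice were labelled wild type and were killed at 26 weeks of age, and free access to a diet began at weaning. The groups were 46 males and 48 females on a high fat diet (22% fat by weight), and 48 males and 50 females on standard chow (6% fat by weight). A generation label split the mice into 97 of G11L1 and 95 of G11L2, with 21 to 25 mice of each label in every group. The hour of death and the time since the last meal are not known from the labels.

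Values are the normalized signal of the deposited table, scaled by the authors to the upper quartile of each mouse, and they are not corrected for gene length, so a level is compared between groups and never between genes. Log2 differences are on log2(signal + 0.0629) and are given ± SE from limma. A gene was called when its adjusted p, by limma with Benjamini-Hochberg adjustment over all 14602 genes, was under 0.05. In whole tissue, fewer cells of a type and less RNA per cell cannot be told apart.

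By the value of a single read, the mice had 9.79 to 17.9 M reads (median 14.2). The lowest median correlation of a mouse with the others was 0.925 on the log2 scale, and the highest correlation between 2 mice was 0.979, so no library looked like a repeat of another. None of the 10 hepatocyte markers was at 0 in most mice of any group. In 10 mice (2 high fat males, 4 chow males, 2 high fat females and 2 chow females) transcripts of pancreatic acinar cells stood over 10 times above the median, with a highest summed signal of 1486. Acinar cells make much protein and carry many of the genes studied here, so counts without these 10 mice are given below. In 1 mouse labelled a chow female, Xist went against the label. Its 14 chaperone values lay within the range of the other chow females, and without it the counts of members called in every comparison were the same.

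The DNA elements through which the UPR acts are shown first to give the letters of the best known ones. The ER stress response element (ERSE) has the letters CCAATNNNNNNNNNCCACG and is bound by NF-Y with ATF6 or XBP1. ERSE-II is ATTGG, any base, then CCACG, and the UPR element bound by XBP1 was searched as TGACGTGG. The C/EBP-ATF composite element, which ATF4 binds together with C/EBP factors, was searched as TGATGNAA. Each was searched on both strands of the 250 bases before the RefSeq start (GRCm38.p6), where 29 members had an entry, with 30 stretches in all; the others are Atf6, Derl1, Hyou1, Manf and Ppp1r15b. An exact ERSE was in 9 of the 30 stretches, against 37 of 32851 stretches of all genes (0.113%). ERSE-II was in 1 (Herpud1), against 0.0304% of all stretches. The composite element was in 4 (Asns, Atf3, Chac1 and Herpud1), against 3.45% of all, and the UPR element was in 0, against 0.563% of all. The 9 genes with an ERSE are 7 of the 14 chaperones, Syvn1 and Derl3. The motifs found in the stretches printed whole did not overlap each other. The 10 elements are printed 5′ to 3′ with the fixed and free letters of the element in capitals and 5 bases on each side; coordinates are those of the element, and Hsp90b1 has a pair of them.
Hspa5 element, chr2:34772025-34772043, plus strand: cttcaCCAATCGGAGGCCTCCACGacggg
Hsp90b1 element, chr10:86705533-86705551, plus strand: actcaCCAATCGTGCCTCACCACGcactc
Hsp90b1 element, chr10:86705638-86705656, minus strand: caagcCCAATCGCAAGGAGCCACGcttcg
Dnajc3 element, chr14:118937827-118937845, plus strand: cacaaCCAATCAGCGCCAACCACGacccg
Pdia6 element, chr12:17266491-17266509, plus strand: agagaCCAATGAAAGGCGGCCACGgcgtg
Calr element, chr8:84847075-84847093, plus strand: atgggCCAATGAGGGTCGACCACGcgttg
Canx element, chr11:50325800-50325818, minus strand: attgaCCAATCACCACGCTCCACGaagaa
Creld2 element, chr15:88819520-88819538, minus strand: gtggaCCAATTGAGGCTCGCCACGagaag
Syvn1 element, chr19:6046532-6046550, plus strand: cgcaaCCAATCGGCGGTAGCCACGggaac
Derl3 element, chr10:75893242-75893260, minus strand: gctagCCAATGGGGAAGTCCCACGgtaga

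The whole stretch is printed for 3 genes. Hspa5 stands for the chaperones and has its ERSE at positions -65 to -47 from the start. Herpud1 has ERSE-II at -52 to -42 and a composite element on the other strand at -112 to -105. Asns has the composite element at -23 to -16, and stands for the ATF4 branch. Sdf2l1, Trib3 and Ddit3 had a stretch with no exact match to any of these letters. A match is a description of letters and was not tested as a binding site.
Hspa5 promoter, chr2:34771840-34772089, plus strand: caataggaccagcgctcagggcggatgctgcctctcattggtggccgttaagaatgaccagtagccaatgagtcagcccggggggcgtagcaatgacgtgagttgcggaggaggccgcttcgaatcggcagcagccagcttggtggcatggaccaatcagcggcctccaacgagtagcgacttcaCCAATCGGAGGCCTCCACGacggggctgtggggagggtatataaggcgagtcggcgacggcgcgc
Herpud1 promoter, chr8:94386179-94386428, plus strand: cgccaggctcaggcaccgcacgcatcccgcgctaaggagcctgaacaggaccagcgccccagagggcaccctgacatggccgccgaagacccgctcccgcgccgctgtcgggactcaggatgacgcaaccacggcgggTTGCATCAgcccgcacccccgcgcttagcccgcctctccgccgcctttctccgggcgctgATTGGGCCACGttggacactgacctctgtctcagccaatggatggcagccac
Asns promoter, chr6:7693210-7693459, minus strand: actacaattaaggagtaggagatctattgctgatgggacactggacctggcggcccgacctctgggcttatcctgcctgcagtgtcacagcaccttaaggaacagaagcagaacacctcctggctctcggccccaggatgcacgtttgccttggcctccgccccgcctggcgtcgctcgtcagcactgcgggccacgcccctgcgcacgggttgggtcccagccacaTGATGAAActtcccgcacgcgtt

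The comparison of males with females asked whether liver carries different levels of these genes in the sexes. Of the 34 genes, 28 were higher and 2 lower in high fat males than in high fat females, where 31.5% of all tested genes were called higher and 18.3% lower. On chow, 25 were higher and 2 lower in males than in females, where 44.1% of all tested genes were called higher and 19.1% lower. The 14 chaperones accounted for 14 of the higher calls on the high fat diet and for 13 on chow. Their median log2 difference was 0.66 on the high fat diet and 0.61 on chow, beside 0.04 and 0.10 over all tested genes.

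**Figure D1:**
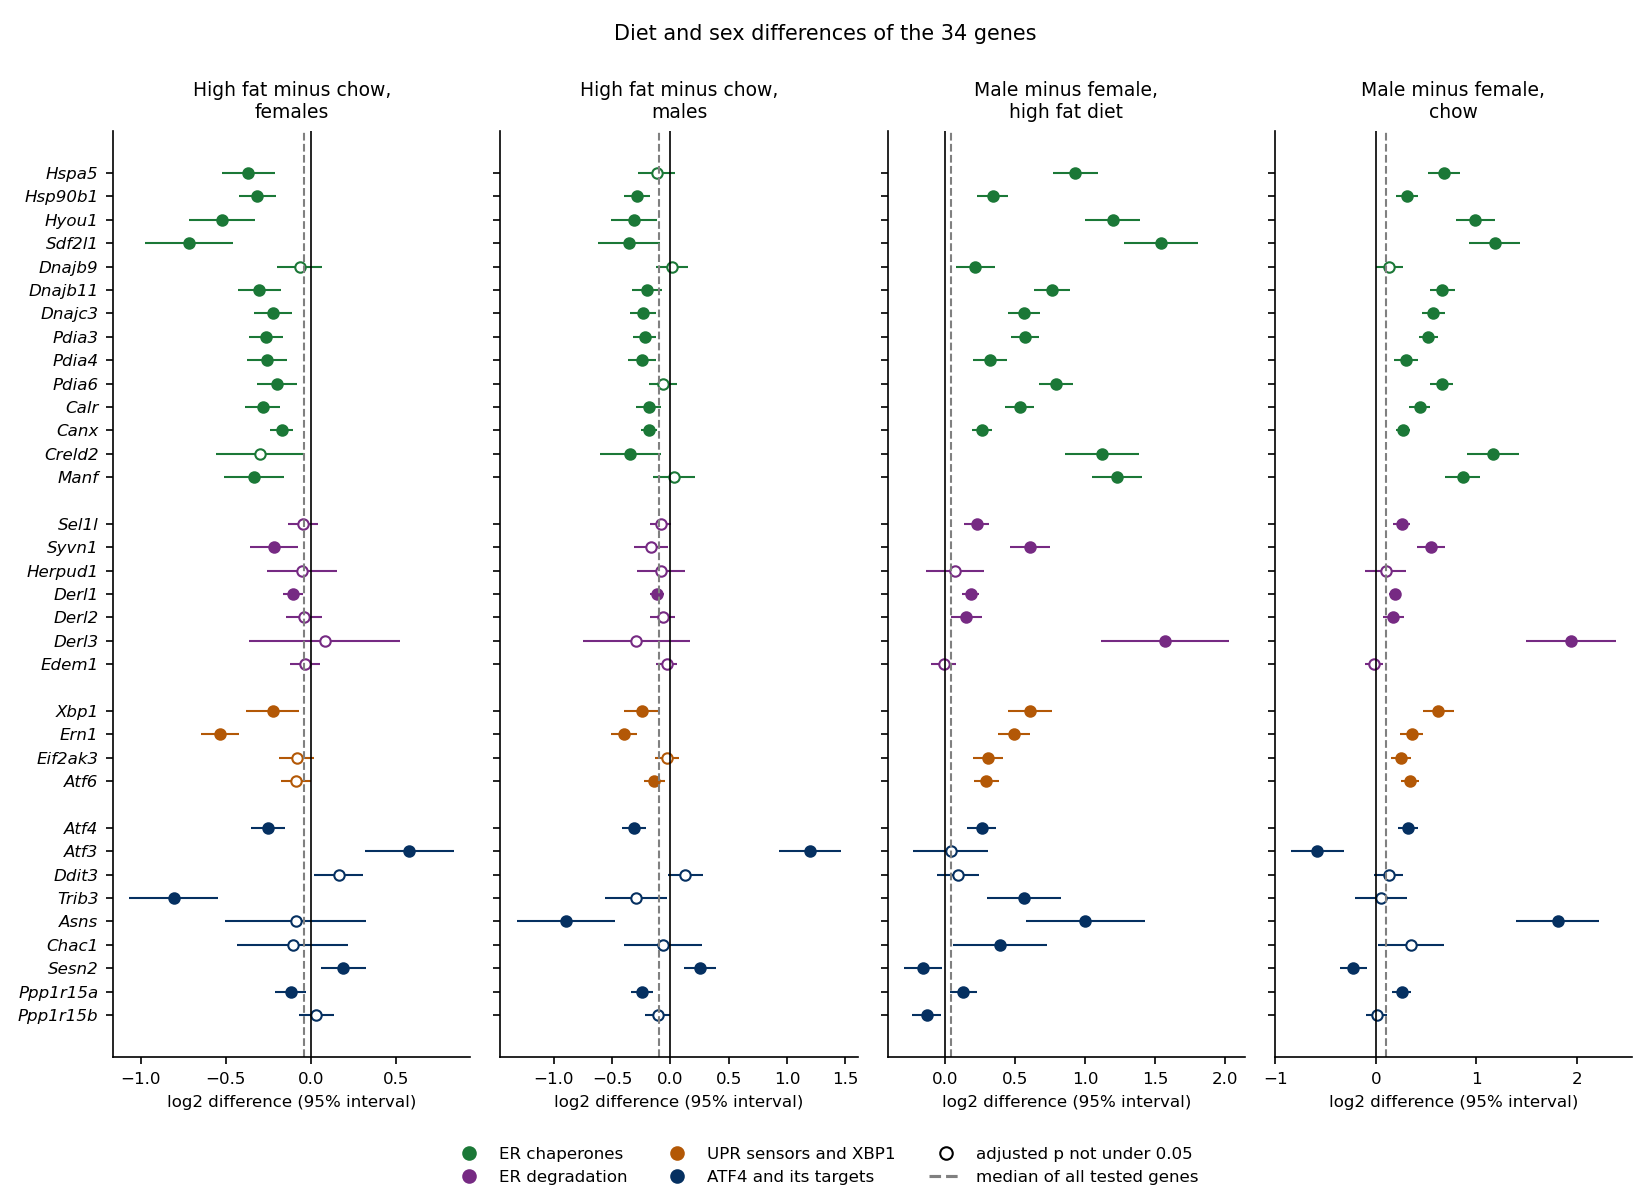
Log2 differences of the 34 genes, with 95% intervals from limma, for high fat minus chow in females and males and for male minus female on each diet; filled points passed an adjusted p of 0.05 and the dashed line is the median of all tested genes. The 14 chaperones all lie right of 0 in both sex panels, and Derl3 and Asns lie farthest right on chow (1.94 and 1.81).

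Hspa5 encodes BiP, the main HSP70 chaperone of the ER (chromosome 2, GRCm38 bases 34771970 to 34777547). Its signal was 92.8 to 543 (median 169) in high fat males and 47.3 to 166 (median 88.5) in high fat females. On chow it was 112 to 399.03 (median 169) in males and 81.5 to 201 (median 118) in females. All 46 high fat males lay above the median of high fat females and 23 lay above the highest of them, while the ranges overlapped. The log2 difference between males and females was 0.93 ± 0.08 on the high fat diet (1.91-fold, adjusted p = 1.53e-21) and 0.68 ± 0.08 on chow (1.60-fold, adjusted p = 6.23e-14, both by limma).

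Sdf2l1, a partner of the ER chaperone ERdj3 that helps keep clients soluble, had the largest sex difference of the chaperones. Its signal was 1.63 to 15.7 (median 4.36) in high fat males and 0.765 to 2.91 (median 1.41) in high fat females. On chow it was 2.78 to 17.3 (median 5.84) in males and 0.943 to 6.33 (median 2.40) in females. Of 46 high fat males, 36 exceeded every high fat female, and on chow all 48 males exceeded the female median and 20 exceeded every female. The log2 difference was 1.54 ± 0.13 on the high fat diet and 1.18 ± 0.13 on chow (limma adjusted p = 9.61e-22 and 3.80e-15).

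Manf, a small secreted ER protein that binds BiP, and Hyou1, an HSP110-type exchange factor for BiP, came next on the high fat diet. Manf had a signal of 10.4 to 51.4 (median 16.6) in high fat males and 2.87 to 13.3 (median 7.30) in high fat females, so that only the lower tail of the males overlapped the females and 35 of 46 males exceeded every female. Hyou1 had 18.9 to 153 (median 39.2) in high fat males and 11.1 to 36.6 (median 17.8) in high fat females, and 26 males exceeded every female. Their log2 differences were 1.23 ± 0.09 and 1.20 ± 0.10 on the high fat diet and 0.87 ± 0.09 and 0.99 ± 0.10 on chow (limma adjusted p = 2.69e-27, 9.23e-23, 7.10e-17 and 8.42e-18, in that order). Creld2, a disulfide isomerase-like factor, differed by 1.12 ± 0.13 on the high fat diet and 1.16 ± 0.13 on chow (limma adjusted p = 4.12e-13 and 1.14e-14).

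Smaller differences were found for the other folding genes. The J-domain co-chaperones of BiP, Dnajb11 (ERdj3) and Dnajc3 (p58IPK), differed by 0.76 and 0.56 on the high fat diet and by 0.66 and 0.57 on chow. Among the disulfide isomerases, Pdia6 differed by 0.79 and 0.65, Pdia3 by 0.57 and 0.52, and Pdia4 by 0.32 and 0.30, high fat diet first. The lectin chaperones Calr and Canx, which hold glycoproteins for folding, differed by 0.53 and 0.26 on the high fat diet and by 0.44 and 0.27 on chow, and the HSP90 of the ER, Hsp90b1, by 0.34 and 0.31. Dnajb9 (ERdj4), a co-chaperone that helps return IRE1 to BiP, was the exception, with 0.22 ± 0.07 on the high fat diet (adjusted p = 0.0059) and 0.14 ± 0.07 on chow (adjusted p = 0.0722, not called). Its high fat call was lost with quantile normalization (0.15, adjusted p = 0.0518) and within each generation label alone (adjusted p = 0.0529 in G11L1 and 0.118 in G11L2), which leaves fewer mice. On chow, all 48 males exceeded the female median of Sdf2l1, Dnajb11, Pdia3, Pdia6, Calr and Manf. None of the 34 genes separated the sexes without overlap on either diet. The share of all tested genes without overlap was not computed, so it cannot be told whether this is particular to the 34.

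**Figure D2:**
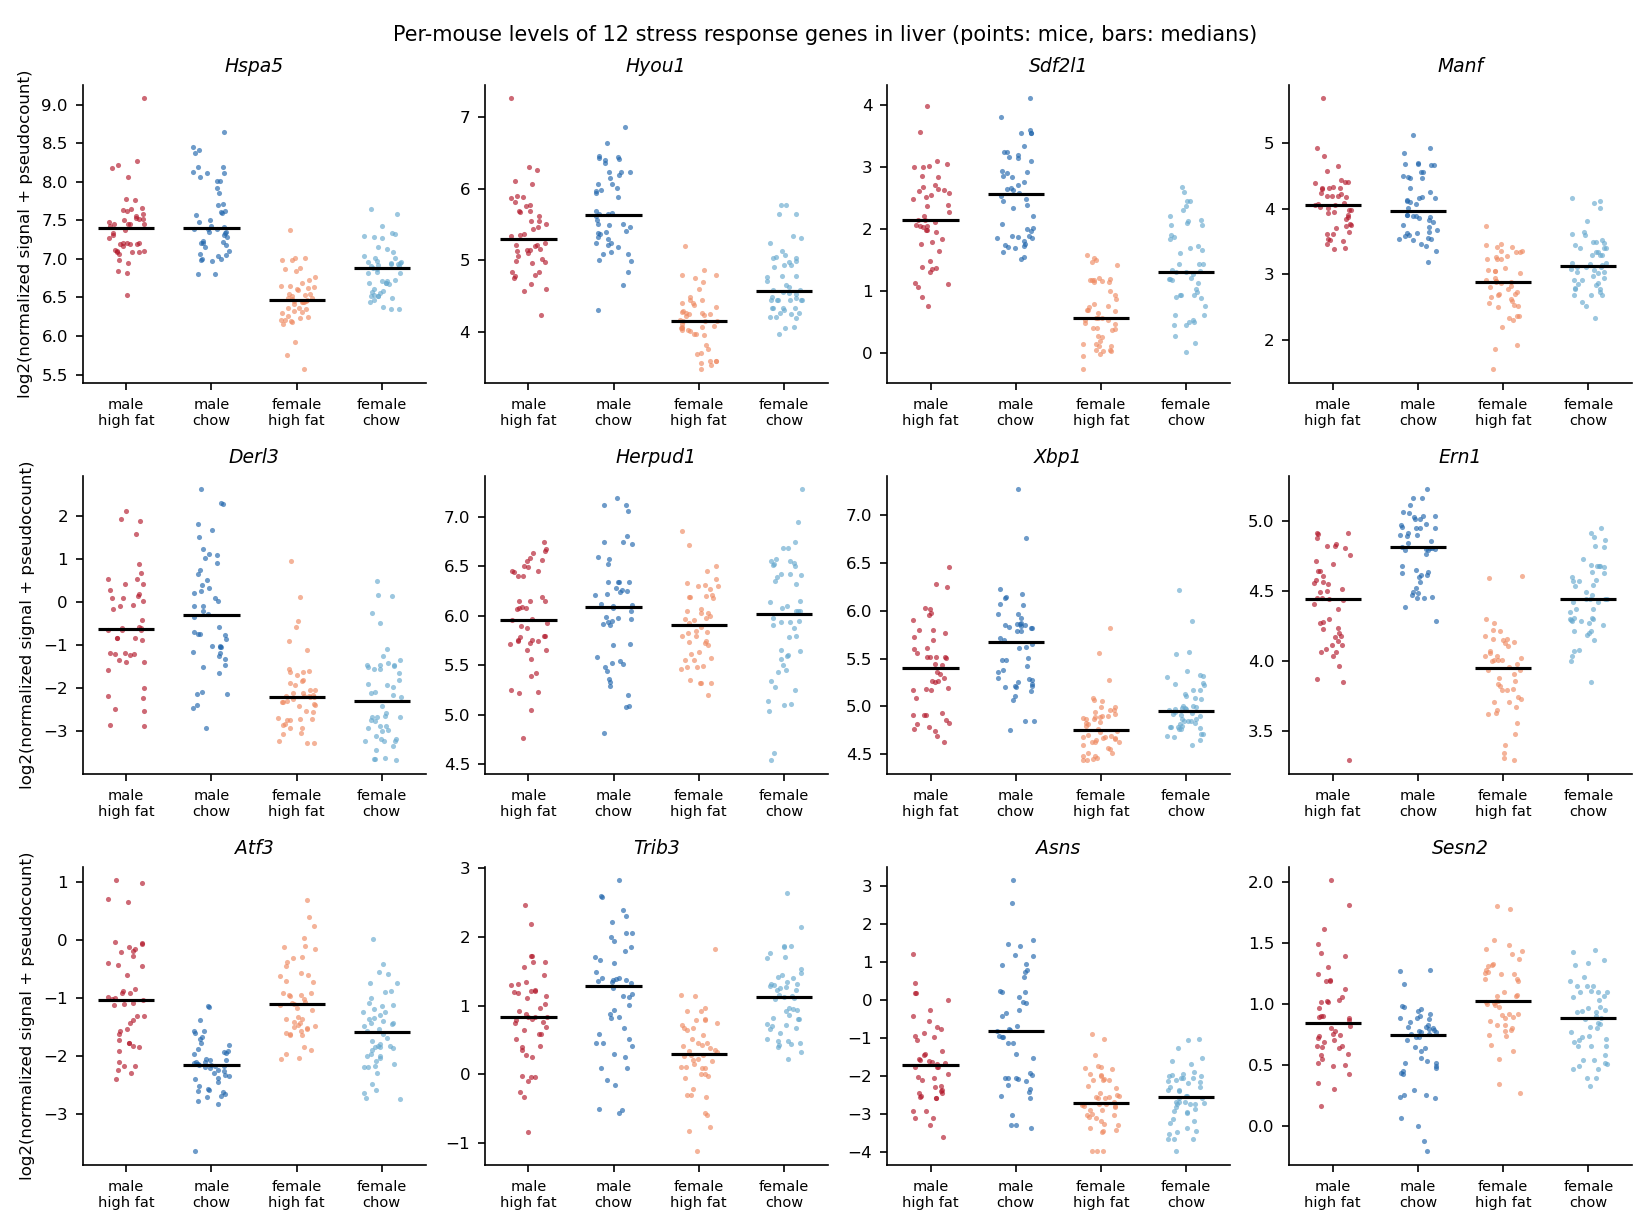
Log2(normalized signal + 0.0629) of 12 genes in every mouse (points), with the group median (bar), in 46 high fat males, 48 chow males, 48 high fat females and 50 chow females. Hspa5, Hyou1, Sdf2l1 and Manf sit higher in both male groups, Herpud1 has no visible shift, and Atf3 is highest in the high fat groups.

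Of the 7 ER degradation genes, 5 were higher in males on each diet and 0 lower (limma; the 2 others, Herpud1 and Edem1, had p over 0.05 before adjustment as well). Derl3, a derlin of the channel that moves misfolded proteins out of the ER, had a signal of 0.0727 to 4.32 (median 0.590) in high fat males and 0.0400 to 1.89 (median 0.153) in high fat females. On chow it was 0.0676 to 6.14 (median 0.748) in males and 0.0149 to 1.36 (median 0.140) in females. The ranges overlapped on both diets, and 4 of 46 high fat males exceeded every high fat female and 14 of 48 chow males exceeded every chow female. Its log2 difference was 1.57 ± 0.23 on the high fat diet and 1.94 ± 0.23 on chow (limma adjusted p = 2.10e-09 and 6.15e-14). Over the other settings it ran from 0.71 to 1.88 on high fat and from 0.90 to 2.42 on chow, called under all. The pseudocount equals about 3.99 reads of the median mouse, and at levels as low as those of Derl3 in females this scale understates the change.

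Syvn1 (HRD1), the ubiquitin ligase of the same channel, differed by 0.60 ± 0.07 on the high fat diet and 0.55 ± 0.07 on chow, and its partner Sel1l by 0.22 ± 0.05 and 0.26 ± 0.04. Within G11L2 the high fat value of Sel1l was 0.10 (adjusted p = 0.269). The other derlins, Derl1 and Derl2, differed by 0.18 and 0.15 on the high fat diet and by 0.19 and 0.18 on chow. The Derl2 call was lost on both diets under both other scalings (median-of-ratios rescaling first, log2 0.09 and 0.10 on the high fat diet, 0.06 and 0.05 on chow). Herpud1, which recruits the ligase, differed by 0.07 ± 0.11 and 0.10 ± 0.10 (adjusted p = 0.614 and 0.42). Edem1, a mannosidase-like factor that picks glycoproteins for degradation, differed by -0.01 ± 0.05 and -0.02 ± 0.04 (adjusted p = 0.845 and 0.731), although on chow it was called lower in males after median-of-ratios rescaling (-0.14) and with quantile scaling (-0.12).

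All 4 sensor and XBP1 genes were higher in males on both diets, and remained so under both other scalings. Xbp1, which encodes the transcription factor that IRE1 activates by splicing, had a signal of 24.7 to 87.9 (median 42.2) in high fat males and 21.5 to 56.3 (median 26.9) in high fat females. On chow it was 26.8 to 155 (median 51.0) in males and 24.1 to 74.4 (median 30.8) in females. Its log2 difference was 0.60 ± 0.08 on the high fat diet and 0.62 ± 0.08 on chow (limma adjusted p = 3.92e-11 and 2.32e-12), and 3 of 48 chow males exceeded every chow female. Ern1 differed by 0.49 and 0.36, Eif2ak3 by 0.30 and 0.25, and Atf6 by 0.29 and 0.34. The table counts whole genes, so spliced and unspliced Xbp1 mRNA could not be told apart.

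ATF4 and its targets did not move as a block between the sexes. On the high fat diet 5 of the 9 were higher and 2 lower in males, where 31.5% of all tested genes were higher and 18.3% lower. On chow 3 were higher and 2 lower, where these shares were 44.1% and 19.1%, so the chow counts show no clear excess. Their median log2 difference was 0.13 on each diet, beside 0.04 and 0.10 over all genes. Asns, asparagine synthetase and a much used readout of ATF4, had a signal of 0.0185 to 2.25 (median 0.241) in high fat males and 0 to 0.477 (median 0.0896) in high fat females. On chow it was 0.0333 to 8.89 (median 0.510) in males and 0 to 0.429 (median 0.108) in females. It was listed at 0 in 3 high fat females and 1 chow female, and 28 of 48 chow males exceeded every chow female. The log2 difference was 1.00 ± 0.22 on the high fat diet and 1.81 ± 0.21 on chow (limma adjusted p = 3.37e-05 and 5.58e-14). Over the other settings it ran from 0.35 to 1.44 on high fat and from 0.83 to 2.28 on chow. It was called under all of them, but its size depended on the setting.

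Atf4 itself differed by 0.26 ± 0.05 on the high fat diet and 0.32 ± 0.05 on chow (limma adjusted p = 8.22e-06 and 1.28e-08), and within G11L1 the high fat value was 0.12 (adjusted p = 0.153). Ppp1r15a (GADD34), which brings the phosphatase back to eIF2, differed by 0.13 ± 0.05 and 0.26 ± 0.05 (adjusted p = 0.0178 and 5.62e-07), and the first of these calls was lost under both other scalings (0.07 and 0.10). Trib3, a pseudokinase that feeds back on ATF4, was higher in high fat males by 0.56 ± 0.14 (adjusted p = 0.000213) and differed by 0.05 ± 0.13 on chow (adjusted p = 0.751). Chac1, which breaks down glutathione, differed by 0.39 ± 0.17 and 0.35 ± 0.17 (adjusted p = 0.0466 and 0.0606), and each call depended on the setting. Ddit3 (CHOP), the factor tied to cell death under long stress, differed by 0.09 ± 0.08 and 0.13 ± 0.07 and was called in no comparison.

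The genes lower in males were Sesn2 on both diets, Atf3 on chow and Ppp1r15b on the high fat diet. Sesn2, a leucine-binding inhibitor of mTORC1, differed by -0.16 ± 0.07 on the high fat diet and -0.22 ± 0.07 on chow (limma adjusted p = 0.0432 and 0.00243). Its high fat call was lost with no filter (adjusted p = 0.0576) and within each generation (0.342 in G11L1 and 0.101 in G11L2), and its chow call within G11L2 (0.0575). Atf3, a stress-induced transcription factor, differed by 0.04 ± 0.14 on the high fat diet and -0.58 ± 0.13 on chow (adjusted p = 0.835 and 7.38e-05). Ppp1r15b (CReP), the constitutive partner of the eIF2 phosphatase, differed by -0.13 ± 0.05 on the high fat diet (adjusted p = 0.0309), a call lost within each generation (0.375 in G11L1 and 0.0634 in G11L2) and without the 10 least alike mice (0.0873). On chow it differed by 0.01 ± 0.05 as deposited, and turned to -0.11 and -0.12 under the same scalings, where it was called lower in males.

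The comparison of the high fat diet with chow asked which of these genes differ with dietary fat within each sex. In females, 2 genes were higher and 19 lower on high fat, where 10.0% of all tested genes were called higher and 23.3% lower. In males, 2 genes were higher and 17 lower, where 11.4% of all tested genes were called higher and 39.8% lower. Chow females enter both this comparison and the sex comparison on chow, and each of the other groups is likewise used in 2 comparisons, so the counts are not independent. The chaperones made up 12 of the 19 lower calls in females, with a median log2 difference of -0.29 beside -0.04 over all genes. They made up 10 of the 17 in males, with a median of -0.21 beside -0.10 over all genes, and this count dropped to 1 with median-of-ratios rescaling and to 0 with quantile normalization (medians -0.10 and -0.06).

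**Figure D3:**
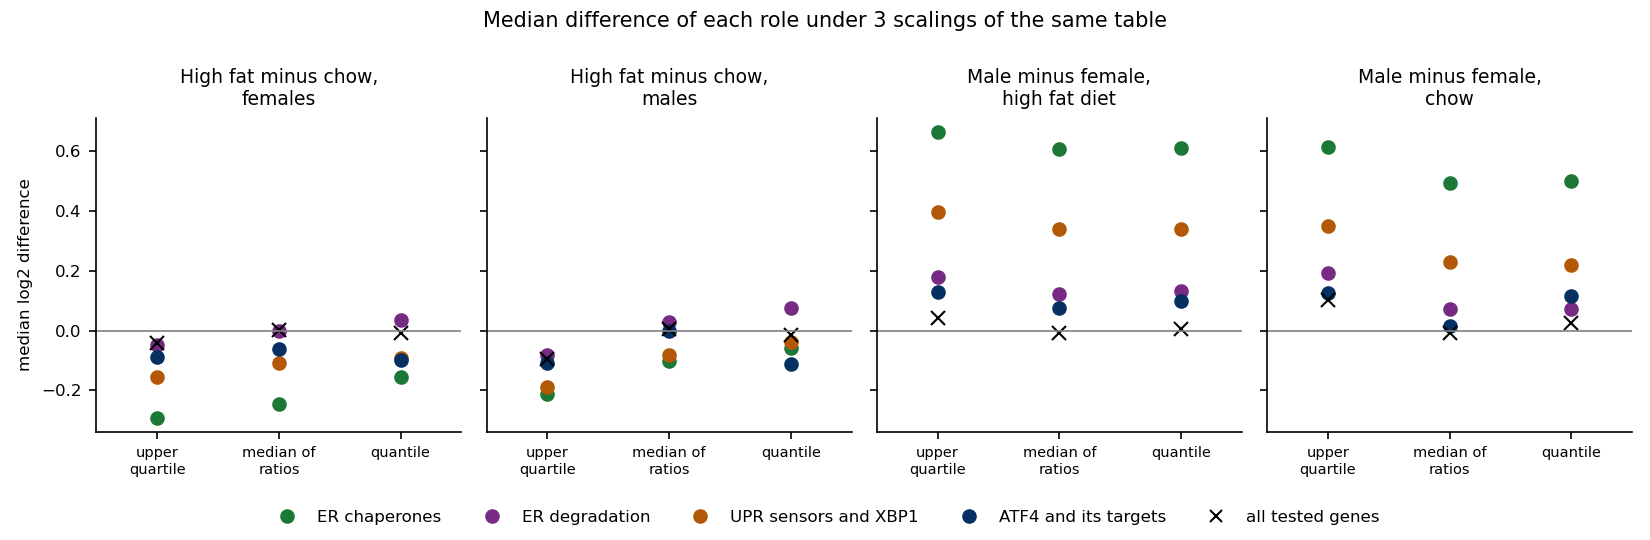
Median log2 difference of the 14 chaperones, 7 ER degradation genes, 4 sensors and 9 ATF4 genes (points), and of all 14602 tested genes (crosses), in 4 comparisons, for the table as deposited and after 2 other scalings. The chaperone median stays near 0.6 between males and females on the high fat diet (0.66, 0.61 and 0.61) and shrinks towards 0 for diet in males (-0.21, -0.10 and -0.06).

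How many genes were called lower on high fat depended on the scaling, which also moved the values of all genes. The median difference of all tested genes in males on high fat was -0.10 as deposited, 0.01 with median-of-ratios and -0.02 with quantile scaling, and that of males against females on chow was 0.10, -0.01 and 0.02. Relative to that all-gene median, the chaperone median was -0.25, -0.25 and -0.15 for diet in females, -0.11, -0.11 and -0.04 for diet in males, 0.62, 0.62 and 0.60 for sex on high fat, and 0.51, 0.50 and 0.48 for sex on chow, in the same order of scalings. For diet in females, members called higher and lower were 2 and 19 as deposited, 3 and 15 with median-of-ratios rescaling and 2 and 12 with quantile normalization, while over all genes 30.0%, 50.6% and 48.4% of the calls were higher. For diet in males they were 2 and 17, 3 and 5, and 3 and 4, with 22.3%, 53.5% and 44.5% of all calls higher. For sex on high fat they were 28 and 2, 25 and 2, and 25 and 2, with 63.3%, 48.1% and 52.4% higher. For sex on chow they were 25 and 2, 24 and 4, and 25 and 4, with 69.7%, 47.0% and 54.8% higher.

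The chaperone with the largest diet difference in females was Sdf2l1. The signals given above, with medians of 1.41 in high fat females and 2.40 in chow females, overlapped, and 5 of 48 high fat females exceeded the chow median. Its log2 difference was -0.72 ± 0.13 in females (adjusted p = 3.58e-06) and -0.35 ± 0.13 in males (adjusted p = 0.0198, both by limma). Hyou1 differed by -0.52 ± 0.10 in females and -0.32 ± 0.10 in males. Hspa5 differed by -0.37 ± 0.08 in females, where 42 of 48 high fat mice lay at or below the chow median and 15 lay below every chow female, and by -0.12 ± 0.08 in males (adjusted p = 0.222), where 23 of 46 lay above the chow median and the value turned to 0.05 with quantile normalization (not called).

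Manf differed by -0.34 ± 0.09 in females and 0.03 ± 0.09 in males. The difference between those diet effects was 0.36 ± 0.13 with an adjusted p of 0.0539, and it passed the threshold under 5 of the other settings and not under the rest. The other chaperones called in females were Hsp90b1 (-0.31), Dnajb11 (-0.30), Calr (-0.28), Pdia3 (-0.26), Pdia4 (-0.26), Dnajc3 (-0.22), Pdia6 (-0.20) and Canx (-0.17). With quantile normalization the last 3 were not called (Dnajc3 -0.12, Pdia6 -0.09 and Canx -0.04, adjusted p = 0.0895, 0.239 and 0.364). Creld2 differed by -0.30 ± 0.13 in females (adjusted p = 0.0677) and -0.34 ± 0.13 in males (adjusted p = 0.0256). Dnajb9 was called in neither sex (-0.07 and 0.01).

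Ern1 had the smallest p of all 34 genes for diet in females. Its signal was 9.72 to 24.3 (median 15.3) in high fat females and 14.3 to 30.8 (median 21.6) in chow females, and 19 of 48 high fat females lay below every chow female. In males it was 9.70 to 30.1 (median 21.7) on high fat and 19.4 to 37.4 (median 28.0) on chow, with 18 of 46 high fat males below every chow male. The log2 differences were -0.53 ± 0.06 and -0.40 ± 0.06 (limma adjusted p = 5.86e-15 and 2.64e-09), and they kept their calls in both sexes under every setting tried. Xbp1 differed by -0.22 ± 0.08 and -0.24 ± 0.08 (adjusted p = 0.019 and 0.00755), and both calls were lost under both other scalings. Atf6 was called in males (-0.14 ± 0.05, adjusted p = 0.00938), which did not hold under either other scaling (-0.03 and 0.01). Eif2ak3 was called in neither sex (-0.08 and -0.03).

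ER degradation genes gave few diet calls. In females Syvn1 (-0.22 ± 0.07, adjusted p = 0.0128) and Derl1 (-0.10 ± 0.03, adjusted p = 0.00318) were lower on high fat, and in males Derl1 (-0.12 ± 0.03, adjusted p = 0.000655). None of these 3 calls held under either other scaling, and the median of the 7 genes changed sign in both sexes. In females it was -0.05 as deposited, -0.001 with median-of-ratios rescaling and 0.03 with quantile normalization. In males it was -0.08, 0.03 and 0.07 in the same order. Herpud1 (-0.05 and -0.08), Sel1l (-0.05 and -0.08), Derl2 (-0.04 and -0.07) and Derl3 (0.08 and -0.29, with SE 0.23 each) were called in neither sex, females first. Edem1 differed by -0.04 and -0.03, but after quantile normalization it was called higher on high fat in males (0.13).

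Within the ATF4 branch the diet differences ran in both directions. Atf3 was higher on high fat in both sexes. Its signal was 0.127 to 1.99 (median 0.428) in high fat males and 0.0169 to 0.394 (median 0.161) in chow males, and 27 of 46 high fat males exceeded every chow male. In females it was 0.179 to 1.55 (median 0.405) on high fat and 0.0862 to 0.953 (median 0.269) on chow, and 4 of 48 high fat females exceeded every chow female. The log2 differences were 1.20 ± 0.14 in males and 0.58 ± 0.13 in females (limma adjusted p = 3.01e-13 and 0.000289).

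The diet effect on Atf3 was larger in males than in females by 0.62 ± 0.19 (limma adjusted p = 0.0266). It was the only member called for the difference of the diet effects, with 0 called lower (5 of 34 had an unadjusted p under 0.05), where 1.46% of all tested genes were called higher and 6.92% lower. The call was lost under 5 of the 14 other settings: with quantile normalization (0.59, adjusted p = 0.0562), with a pseudocount 10 times larger, within G11L1 alone, within G11L2 alone, and without the 10 mice with pancreatic transcripts (0.54, adjusted p = 0.0579). The scatter of Atf3 between mice was also larger on high fat, by 0.20 ± 0.06 in the mean absolute log2 deviation from the group median (adjusted p = 0.04), a call that was lost under 7 settings. It was the 1 member called for scatter, with 0 lower (8 had an unadjusted p under 0.05), where 1.86% of all tested genes were called higher and 0.363% lower.

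Trib3 was lower on high fat in females, with a signal of 0.398 to 3.46 (median 1.17) on high fat and 1.10 to 6.13 (median 2.11) on chow. Of 48 high fat females, 20 lay below every chow female. In males it was 0.50 to 5.47 (median 1.72) on high fat and 0.617 to 7.02 (median 2.38) on chow, and 1 of 46 lay below every chow male. The log2 differences were -0.81 ± 0.13 in females and -0.30 ± 0.14 in males (limma adjusted p = 2.42e-07 and 0.0566), and the difference between them was 0.51 ± 0.19 (adjusted p = 0.0703). Asns showed the opposite order, with -0.90 ± 0.22 in males and -0.09 ± 0.21 in females (adjusted p = 0.000228 and 0.779) and a difference of -0.81 ± 0.30 (adjusted p = 0.0731). Within G11L2 alone the male value of Asns was -0.76 with an adjusted p of 0.0788.

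Atf4 was lower on high fat in both sexes (-0.25 ± 0.05 in females and -0.31 ± 0.05 in males, adjusted p = 3.11e-05 and 1.67e-07). So was Ppp1r15a (-0.12 ± 0.05 and -0.25 ± 0.05, adjusted p = 0.0378 and 5.22e-06), although the female call was lost under 6 settings. Sesn2 was higher on high fat by 0.19 ± 0.07 in females and 0.25 ± 0.07 in males (adjusted p = 0.0216 and 0.00122), calls lost within each generation in females (0.203 in G11L1 and 0.143 in G11L2) and within G11L2 in males (0.102). Ddit3 differed by 0.16 ± 0.07 and 0.13 ± 0.08 (adjusted p = 0.0802 and 0.152) and was called higher in both sexes after median-of-ratios rescaling (0.21 and 0.23). Chac1 (-0.11 and -0.06) and Ppp1r15b (0.03 and -0.11) were called in neither sex.

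Markers of other cells moved with sex and diet as well. The sex counts are to be read against 18.3% of all tested genes lower and 31.5% higher in males on high fat. On chow these shares were 19.1% and 44.1%. Of 12 Kupffer cell and macrophage markers, 10 were lower in males on high fat and all 12 on chow, with summed signals of 49.8 to 248 in high fat males and 53.3 to 272 in high fat females, while chow males had 40.8 to 166, against 68.3 to 494 in chow females. Of 10 T, NK and B cell markers, 9 were lower and 1 higher in males on each diet (summed medians 1.33 and 1.83 on high fat, 1.39 and 1.84 on chow, males first). Plasma cells are rich in UPR transcripts, and of their 12 tested markers 5 were lower in males on high fat and 6 on chow, with 0 higher. Their sums were 34.5 to 87.3 in high fat males and 45.5 to 86.4 in high fat females, and 38.5 to 84.8 in chow males and 43.5 to 123 in chow females, with Tnfrsf17 at 0 in most mice. In these lists most called markers were lower in males, while the chaperones were higher. Median sums of lipid-associated macrophage markers were instead higher in males, 21.3 against 15.6 on high fat and 10.9 against 9.88 on chow. Kupffer cell and macrophage markers were higher on high fat in 8 of 12 in males, and in females 1 was higher and 2 lower. Over all tested genes 11.4% were higher in males, and in females 10.0% were higher and 23.3% lower.

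Over all tested genes, 10.0% were higher on high fat in females and 11.4% in males. Lipid-associated macrophage markers were higher on high fat in 8 of 8 in females and in 7 of 8 in males. Their sums were 6.89 to 68.5 (median 15.6) in high fat females and 7.20 to 14.3 (median 9.88) in chow females, and 8.91 to 145 (median 21.3) in high fat males and 6.70 to 53.8 (median 10.9) in chow males. Hepatocyte markers were lower on high fat in 6 of 10 in females and 9 of 10 in males, where 23.3% and 39.8% of all tested genes were lower. Their median sums were 28640 and 32840 in females and 25510 and 30890 in males, high fat first. Over all genes, lower calls in males fell from 5810 to 2453 with median-of-ratios rescaling. The marker counts were not repeated under it. The part of these cells in the member differences was not tested.

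Pancreatic acinar markers had median sums of 6.29 in high fat males and 1.46 in high fat females, while chow males had 7.46, against 3.11 in chow females, with Cpa1, Cpb1, Cela3b, Pnlip, Clps, Cel, Prss2, Try4 and Rnase1 at 0 in most mice of every group. Without the 10 mice with high acinar transcripts, 27 members were higher and 2 lower in males on high fat, 26 higher and 2 lower on chow, 2 higher and 18 lower with high fat in females, and 2 higher and 19 lower in males. All 14 chaperones were then higher in males on both diets. In the mice kept, median acinar sums were still higher in males, 5.89 against 1.43 in females on high fat and 7.00 against 3.10 on chow. The part of this remaining difference was not tested.

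Genes of neighbouring steps, taken from lists by function, were also higher in males in large part, to be read against 31.5% of all tested genes higher and 18.3% lower on high fat, and 44.1% and 19.1% on chow. Of 22 genes of the translocon, signal recognition and signal peptidase, which bring proteins into the ER, 20 were higher in males on high fat and 21 on chow with 0 lower, for example Srpr (0.44 and 0.54) and Sec63 (0.45 and 0.49). Of 20 other ER folding genes, 15 and 18 were higher and 0 lower, led by the prolyl isomerase Fkbp11 (1.32 and 1.21) and the oxidase Ero1lb (1.21 and 1.01). Of 11 subunits of the oligosaccharyltransferase, which attaches glycans, 10 were higher on each diet, for example Krtcap2 (0.42 and 0.41). Of 26 genes of ER to Golgi transport, 21 were higher and 1 lower on high fat and 22 were higher on chow, led by the cargo receptor Tmed9 (0.82 and 0.85). Of 19 other ER degradation genes, 12 and 15 were higher and 0 lower, with Ube2j1 at 0.34 and 0.41.

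Of 13 other UPR regulators, 7 were higher and 1 lower in males on high fat, and 8 and 3 on chow, where the lower share lies near that of all genes. Of 9 other eIF2 kinases and eIF2B subunits, 8 were higher and 1 lower on each diet. Lists outside the ER gave a mixed picture. Of 17 cytosolic aminoacyl tRNA synthetases, many of them known ATF4 targets, 14 were higher in males on high fat and 15 on chow with 0 lower (median 0.31 and 0.37). Of 21 other ATF4 targets, 7 were higher and 4 lower on high fat, and 6 higher and 5 lower on chow, with Mthfd2, the mitochondrial folate enzyme, at 0.74 and 1.18 and Vldlr, a lipoprotein receptor, at -2.25 and -2.24. Cytosolic heat shock genes were higher in 2 and 6 of 10 and lower in 1 on each diet, and mitochondrial chaperones were higher in 2 and 7 of 7, with 0 lower. After median-of-ratios rescaling, 17 of the 22 translocon genes, 11 of the 20 folding genes, 16 of the 26 transport genes and 3 of the 7 mitochondrial chaperones were called higher in males on chow.

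On high fat the same lists were lower in part, to be read against 23.3% of all tested genes lower in females and 39.8% in males. In females 13 of 22 translocon genes, 10 of 20 folding genes, 15 of 26 transport genes and 10 of 19 degradation genes were lower, for example Spcs2 of the signal peptidase (-0.34), Pdia5 (-0.52) and Sec23b (-0.32). In males the numbers were 13, 11, 14 and 16, and after median-of-ratios rescaling they were 3, 3, 3 and 7. As deposited, the first 3 of the male counts lie not far above the share of all genes. Subunits of the oligosaccharyltransferase were lower in 6 of 11 in females and 3 in males (in males a share below that of all genes), tRNA synthetases in 7 and 14 of 17, and mitochondrial chaperones in 1 and 7 of 7. The other UPR regulators were lower in 2 and 5 of 13 and higher in 0 and 2, and the eIF2 group was lower in 1 and 6 of 9. Among cytosolic heat shock genes 1 was higher in females and 1 lower in males. Among the other ATF4 targets, 5 were higher and 3 lower in each sex. Cth, which makes cysteine, was lower (-1.23 ± 0.10 in females and -0.75 ± 0.11 in males, limma adjusted p = 3.25e-21 and 9.28e-10), and the hormone gene Fgf21 was higher in females (1.21 ± 0.21, adjusted p = 7.05e-07), with a smaller diet effect in males by -0.94 ± 0.29 (adjusted p = 0.028).

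The generation label had no called effect on any member. Of the 34 genes, 0 were higher and 0 lower in G11L2 than in G11L1 by limma (5 had an unadjusted p under 0.05), where 0.397% of all tested genes were called higher and 0.541% lower. The largest value was that of Asns, 0.43 ± 0.15 with an adjusted p of 0.134.

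Within groups, the median scatter of each role lay below that of all tested genes of any signal level, except in the ATF4 group. The residual SD on the log2 scale, after group and generation means were removed, ran from 0.17 (Canx) to 0.66 (Creld2) among the chaperones, with a median of 0.308. It ran from 0.14 (Derl1) to 1.13 (Derl3) among the degradation genes (median 0.269) and from 0.23 (Ppp1r15a) to 1.05 (Asns) among ATF4 and its targets (median 0.369), and the median of the sensors was 0.271, beside a median of 0.325 over all tested genes. Asns, Chac1 and Derl3 have low signals, where read sampling adds to this scatter. Among genes of like signal level, the share that scattered less was 95.8% for Creld2, 93.7% for Sdf2l1, 90.9% for Manf and 87.1% for Hyou1. It was 81.7% for Dnajb9, 77.5% for Dnajb11, 69.7% for Hspa5, 62.5% for Pdia4, 57.9% for Pdia6 and 54.3% for Dnajc3. For Hsp90b1, Pdia3, Calr and Canx it was 29.7%, 29.6%, 28.5% and 4.47%. Most chaperones thus scattered more than the typical gene of their level. A single high fat male held the highest value of its group for 12 of the 14 chaperones (all but Pdia6 and Canx), with an Hspa5 signal of 543, while its Xbp1 ranked 11 and its Trib3 45 of 46. One high fat female likewise held the highest value for 11 of the 14, with Hspa5 at 166 and the highest Xbp1 of its group. On chow a single mouse held 6 of the 14 in males and 6 in females, and 6 males and 5 females held at least 1, against 3 high fat males and 4 high fat females. These counts rest on single mice and on genes that vary together, and no chaperone was called for scatter between the diets.

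Correlations between the 34 genes were computed across the 192 mice on these residuals, for 561 pairs, with permutations of mice within groups and adjustment over all 561 pairs. After adjustment 307 pairs were positive and 31 negative. The share past the threshold among pairs of all tested genes was not computed, so these counts have no background beside them. Pairs among the 14 chaperones had a median r of 0.69, and 85 of 91 were past the threshold, all positive. The closest pair was Hspa5 and Manf, with r = 0.90 and rho = 0.91 (permutation p = 1e-05 for each, the smallest that 100000 permutations can give, and 2.86e-05 adjusted for r). It was 0.88 in high fat females, 0.91 in chow females, 0.90 in high fat males and 0.94 in chow males, and 0.90 without the 2 mice with the most extreme Hspa5. Hspa5 and Hyou1 followed, with r and rho both 0.90 and 0.89 without the 2 most extreme mice.

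**Figure D4:**
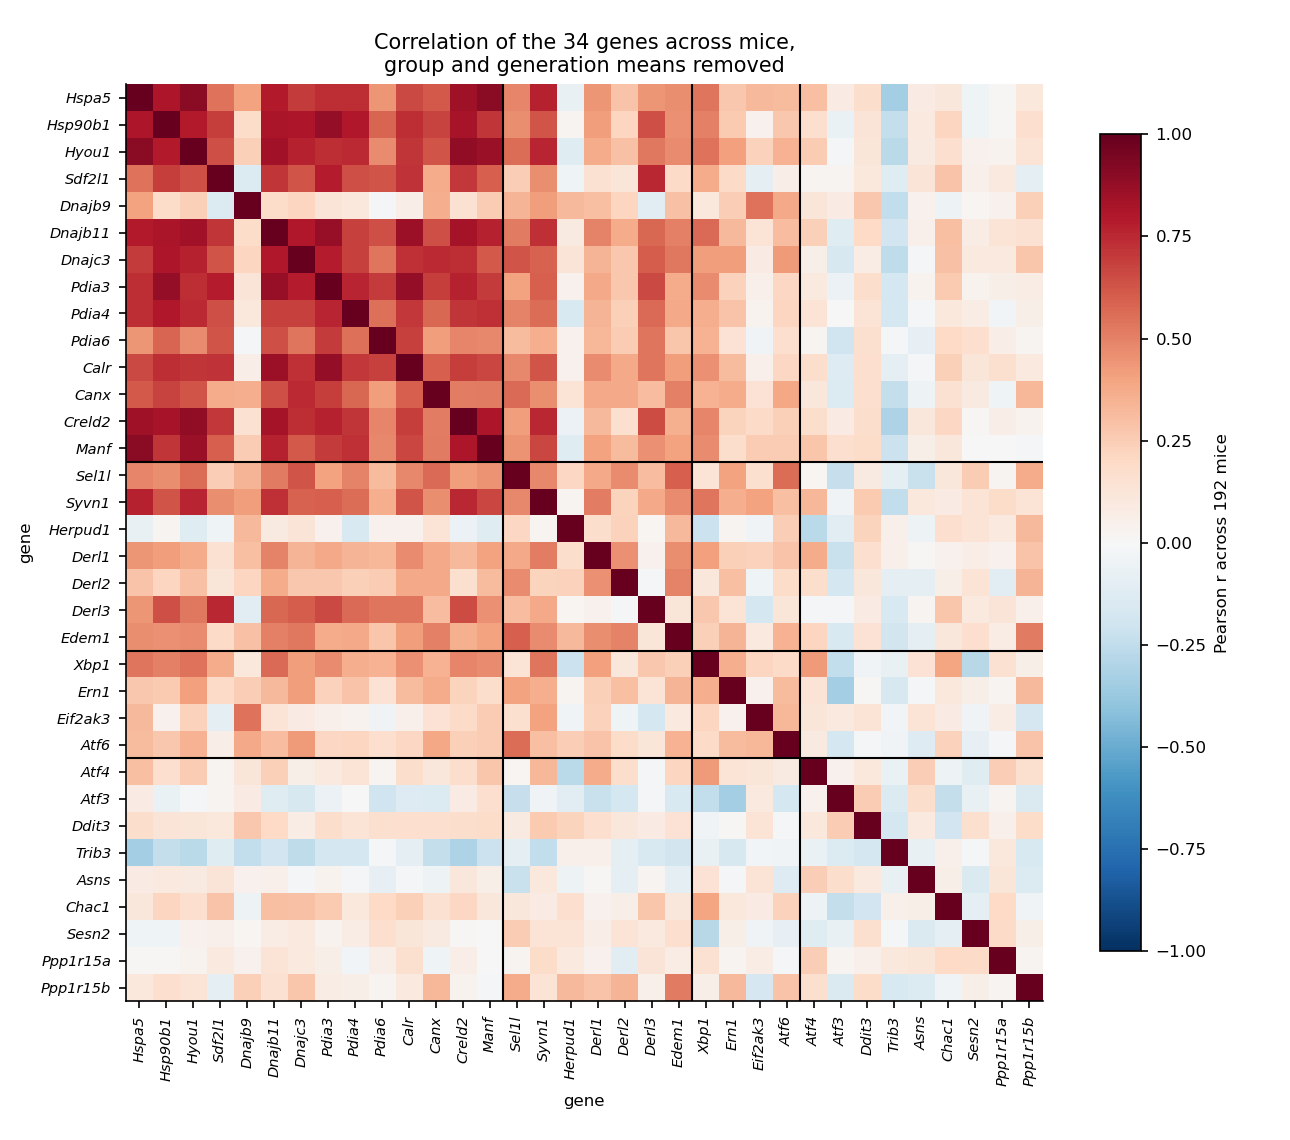
Pearson r between the 34 genes across 192 mice, after group and generation means were removed; lines separate chaperones, ER degradation genes, sensors with XBP1, and ATF4 and its targets. The chaperone block is red (median r 0.69) except the row of Dnajb9, while the ATF4 block is near white (median r 0.04) and Trib3 is blue against the chaperones.

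Some members did not vary with the others of their role. Dnajb9 had a median r of 0.18 with the other 13 chaperones, and its closest member was Eif2ak3 (r = 0.54, rho = 0.52, permutation p = 1e-05 for each, 2.86e-05 adjusted, 0.53 without the 2 most extreme mice). Herpud1 had a median r of 0.03 with the 14 chaperones, although Syvn1, which works in the same channel, had 0.61. Derl3 was closest to Sdf2l1 (r = 0.76, rho = 0.75, permutation p = 1e-05 for each, 2.86e-05 adjusted, and 0.75 without the 2 most extreme mice). Xbp1 had a median r of 0.47 with the chaperones, Ern1 0.27, Atf6 0.26 and Eif2ak3 0.11.

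Correlations among ATF4 and its targets were low across mice. Asns, Atf3 and Chac1 have mean signals of only 0.419, 0.379 and 0.384, where read sampling lowers r, and its part was not tested. The median r over their 36 pairs was 0.04 (7 positive and 3 negative pairs past the threshold), and it was 0.08 between them and the chaperones. The highest were Atf3 with Ddit3 (r = 0.26, rho = 0.19, permutation p = 0.00074, adjusted 0.00165, and r = 0.21 without the 2 most extreme mice) and Atf4 with Asns (r = 0.25, rho = 0.19, permutation p = 0.00059, adjusted 0.00135, and r = 0.24 without those 2). Atf3 with Ddit3 was 0.47 in high fat males, 0.12 in chow males, 0.13 in high fat females and 0.05 in chow females. Trib3 ran against the chaperones, with a median r of -0.22, and against Hspa5 it had r = -0.34 and rho = -0.33 (permutation p = 1e-05 for each, 2.86e-05 adjusted, -0.30 without the 2 most extreme mice). That relation was not even over the groups, at -0.55 in chow males, -0.33 in high fat males, -0.16 in high fat females and -0.04 in chow females. All libraries share the table's scaling, and after median-of-ratios rescaling the median r was 0.69 among chaperones and 0.03 within the ATF4 group.

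Another 3 genes were set against every member because the hour and the feeding state of the mice were not known: the clock genes Arntl and Dbp, which peak at opposite times of day, and Igfbp1, which rises with fasting. Over these 102 pairs, adjusted together, Herpud1 had the largest values, with r = -0.57 and rho = -0.54 against Arntl and r = 0.51 and rho = 0.40 against Dbp (permutation p = 1e-05 for each, 0.000175 adjusted). They were -0.54 and 0.47 without the 2 most extreme mice. Against Arntl the value was -0.33 in high fat females (adjusted p = 0.354, not past the threshold), -0.59 in chow females, -0.61 in high fat males and -0.65 in chow males. Arntl and Dbp themselves had r = -0.77. Trib3 had r = 0.38 with Dbp, Atf4 had 0.33 with Arntl, and Ppp1r15a had 0.34 with Igfbp1 (permutation p = 1e-05 and 0.000175 adjusted for each). Hspa5 had r = 0.24 with Arntl and -0.24 with Dbp (permutation p = 0.00128 and 0.00224, adjusted 0.0104 and 0.0147).

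**Figure D5:**
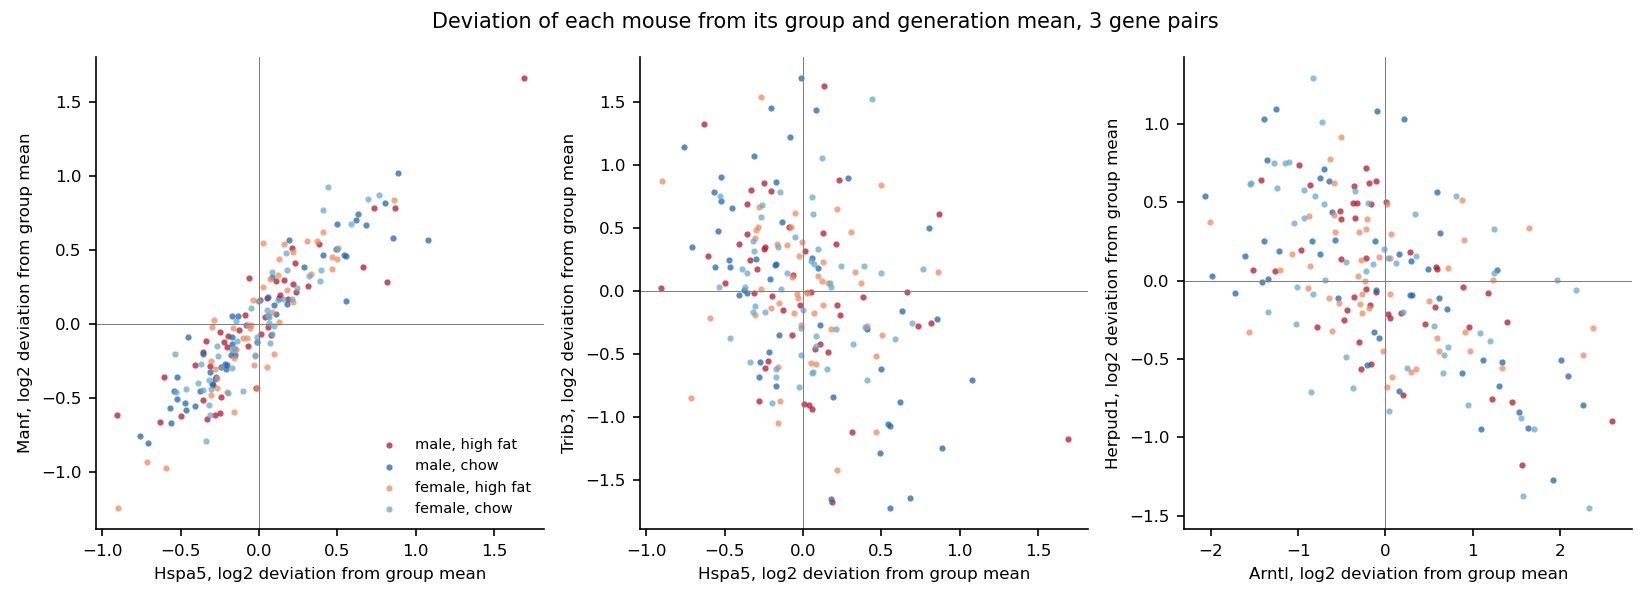
Log2 deviation of every mouse from its group and generation mean for 3 gene pairs, coloured by group. Hspa5 and Manf lie along a line (r = 0.90), with 1 high fat male far at the upper right; Trib3 falls weakly with Hspa5 (r = -0.34), and Herpud1 falls with Arntl (r = -0.57).

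The genes outside the 34 whose residuals were most like those of Hspa5 were found among all other tested genes with a symbol, as a description over 192 mice. They were Morf4l2 (r = 0.78), Gmppb (0.77), Hspa13 (0.76), Uso1 (0.76), Sec23b (0.75), Spcs2 (0.73), Serp1 (0.72), Sec22b (0.71), Tmed9 (0.71) and Stip1 (0.70). Without the 2 mice with the most extreme Hspa5, Morf4l2 had r = 0.75 and Stip1 0.66. For Asns the highest value was that of Mthfd2 (r = 0.35, and 0.29 without the 2 most extreme mice), followed by Tnfrsf12a (0.34) and Armcx3 (0.33). No gene followed Asns as closely as many followed Hspa5. Group medians were 0.09 to 0.51 for Asns and 88.5 to 169 for Hspa5. Read sampling at levels as low as those of Asns lowers r, and its part was not tested.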

How the data were processed

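Liver RNA of 192 mice was sequenced as 384 samples, and the deposited table holds 1 column of signal per mouse, normalized by the authors to the upper quartile. Per the submitters' processing notes, the tool was CASAVA 1.8.0, with mm10 and GRCm38 as builds named. No source used here gives the aligner or counter. Of the table's IDs, 21022 matched the annotation and 432 did not. Among low values, worth up to 100 reads, 77.4% to 82.7% of a mouse's values lay within 0.1 of a whole read, too few to recover reads, and count models were left out.

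Genes above 0 in at least 46 mice with a mean at or over the pseudocount were tested with limma 3.58.1 (R 4.3.3) on log2(signal + 0.0629), with group means and generation as a covariate. Scatter was tested on absolute deviations from the group median. Scripts were tested on simulated data. Correlations used Python 3.11.15 and scipy 1.17.1 with 100000 two-sided permutations. Genes named outside the 34 are the leading called genes of each list and the 10 most alike to Hspa5 and to Asns. The 34 genes, the lists and the tests were chosen with earlier results of these data known. Each mouse is a separate animal. Alternatives covered the pseudocount, filter, scaling, generation, coat colour, weights and mice left out.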

Additional observations from a re-analysis of the deposited data

Results flagged for a closer look

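The diet effect on Atf3 differed between the sexes by a test of the difference itself, although the call was lost under 5 of 14 other settings (quantile normalization, a pseudocount 10 times larger, each generation alone, and without the mice with pancreatic transcripts). It was larger in males than in females by 0.62 on the log2 scale (limma adjusted p = 0.0266), with 41 of 46 high fat males above the chow male median and 39 of 48 high fat females above the chow female median.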

How the results depend on the processing

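The counts that moved by over 1.5 times were as follows. For diet in males, members lower on high fat were 5 with median-of-ratios rescaling, 4 with quantile normalization and 9 within G11L1, and members higher were 1 within G11L2 and 1 with a stricter filter. For diet in females, 12 were lower with quantile normalization, and 1 was higher within G11L1, within G11L2 and with the stricter filter. Members lower in males on high fat were 0 within G11L1 and within G11L2, and 1 with no filter or without the 10 least alike mice. On chow they were 4 with either rescaling, and 1 within G11L2 or with the stricter filter. For the difference of the diet effects, 2 members were higher with either rescaling, with array weights and with the replicate block, 0 were higher within G11L1, within G11L2 and with a pseudocount 10 times larger, and 1 was lower with that pseudocount. For scatter, 0 were higher with quantile normalization, array weights, coat colour as a covariate, a pseudocount 10 times smaller or the stricter filter, within G11L1 or G11L2, and without the 10 least alike mice, and 1 was lower with the larger pseudocount. Within single groups, positive pairs were 170 in high fat females and 180 in chow females, and negative pairs 12 in high fat males, 14 in chow males, 8 in high fat females and 3 in chow females, from fewer mice.

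Among values called as reported or under the alternative, signs turned for Ppp1r15b on chow (-0.11 with median-of-ratios rescaling and -0.12 with quantile normalization), and for Derl1 (0.031), Edem1 (0.13) and Atf6 (0.0076) for diet in males with quantile normalization. The median r among ATF4 and its targets was -0.00215 in chow females and -0.021 in high fat males. The cause was not tested. Over single genes and median correlations, 98 values lost the call and 24 gained it. Signs also turned in 123 values that were called neither as reported nor under the alternative, 28 of them for diet in males, where quantile normalization gave Hspa5 0.05, Sel1l 0.07, Derl2 0.08 and Herpud1 0.08, and G11L1 alone gave Chac1 0.20.

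Males and females shared 92 mouse numbers, and all 92 pairs were on the same diet. With group and generation means removed, the median correlation of their deviations was 0.0232 and 16 pairs exceeded 0.1. Only 2 females correlated best with the male of their number. What else such pairs share cannot be told from these values. The replicate block gave 28 and 2 members for sex on high fat and changed no other count of calls than the one above. Depth limits Asns, Derl3 and Atf3, whose signals lie within a few pseudocounts of 0.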
